A study of Mus musculus with 38 samples.

Results

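The comparison described here set the promoter activity of the soleus muscle of mice on day 2 with food at hand (Fed, 4 libraries) against that of mice on day 1, before any food was taken away (Pre, 4 libraries). The 8 libraries were chosen by their sample titles from the 38 libraries of the series, and each came from 1 or both soleus muscles of 1 mouse. All mice were wild-type males of the strain C57BL/6J, young adults, without any transgene or drug, and carried an implanted temperature sensor. Both groups lived in a temperature-controlled chamber with water and food, at the low ambient temperature at which mice that lose their food enter torpor, and were killed at the same hour of the dark phase. Fed mice had spent 1 more day in the chamber, so the day in the chamber and the group cannot be told apart. The labels conflict on food: the title and the design text name the Fed mice as fed, whereas the condition field of the same samples reads starvation and that of Pre reads control. The other groups are used here only as a scale. Mid mice were without food on day 2 and, by the study, in torpor or between bouts of it at sampling. Dep mice were without food and kept out of torpor by touching, and Post mice had their food back on day 3. HiT mice were kept at high ambient temperature on day 2, with food by the design text and without it by the description of the study. The table held 10819 promoter clusters, of which 10776 had a tag in the 28 libraries called the first run here. All 8 libraries belong to it, by the names of their data columns. The libraries called the second run came from other mice, in what the study describes as an independent experiment.

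The assay, nAnT-iCAGE, selects RNA by its 5′ cap and reads the first bases without an amplification step, so that a tag marks a base where an RNA began. A promoter cluster is a group of such bases, and its peak is the base with most tags. The soleus is a small postural muscle rich in slow, oxidative fibers, and it shifts between glucose and fatty acids with the feeding state of the animal. In the fasted state muscle is known to switch on *Pdk4*, which closes the entry of pyruvate into mitochondrial oxidation, together with the factors and enzymes of fat use, and to switch off fatty acid synthesis. In the fed state insulin holds the fasting genes down and growth through ribosome and mitochondrial protein synthesis is favoured.

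Levels are given as TPM, the deposited tag counts scaled to the same total in every library, and differences as log2 fold changes of Fed minus Pre with their standard errors (SE), from edgeR's quasi-likelihood test after TMM scaling. A promoter was called at a Benjamini-Hochberg FDR below 0.05. The 8 libraries held between 18257657 (Fed 1) and 39176649 (Fed 4) tags in the clusters, which is between 93.9 and 95.3% of the library. TMM factors ran from 0.974 to 1.21, the highest being that of Fed 3, and TPM values are not corrected for them. The TPM of a typical promoter was therefore somewhat higher in Fed 3.

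Before the results, 2 features of single libraries have to be named. Transcripts of hepatocytes, the liver parenchymal cells, were present in 2 of the 4 Fed libraries. *Alb*, the gene of serum albumin, was at 200 TPM in Fed 2 and 148 TPM in Fed 3, against 0.51 in Fed 1, 4.42 in Fed 4 and between 0.42 and 1.06 in the 4 Pre libraries. The summed level of a list of 38 hepatocyte genes, put together after these values were seen, was 800 TPM in Fed 2, 731 in Fed 3, 21.6 in Fed 4, 2.16 in Fed 1 and between 2.66 and 4.22 in Pre. Such transcripts were not restricted to Fed. It was 276 and 388 in the 2 Pre libraries of the second run, which were not compared here. The sum reached 139 in 1 Mid library of the first run, and 871 in 1 Mid library and 2355 in 1 Post library of the second run. The other feature is a high level of some, not all, genes of fast-twitch fibers in Fed 1. *Myh4*, the myosin of fast glycolytic fibers, had at its main promoter 1617 TPM in Fed 1, 424 in Fed 2, 57.9 in Fed 3 and 546 in Fed 4, against 4.54, 210, 62.6 and 458 in Pre 1 to Pre 4. The groups overlapped and the difference was not called (FDR 0.33). Of the other fast fiber markers, *Actn3*, *Mybpc2* and *Pvalb* were also highest in Fed 1. *Myh1* and *Tnnc2* were lower in Fed 1 than in every Pre library, and the rest lay within the range of Pre. The summed fast fiber list lay between 16692 and 26104 TPM in Fed and between 20671 and 27998 in Pre. The counts of called promoters were therefore also taken without Fed 2 and Fed 3.

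By the test, other marker lists gave few calls. The slow fiber markers of the soleus were all detected, and their summed level lay between 16265 and 25910 TPM in Fed and between 18895 and 22878 in Pre. *Myh7*, the slow myosin heavy chain, had 876, 822, 1398 and 1176 TPM in Fed 1 to Fed 4 and 1387, 1231, 1161 and 1452 in Pre 1 to Pre 4 (log2 fold change -0.34, FDR 0.10). By the most active promoter of each gene, *Egfl7*, a secreted protein of endothelium, was the marker that passed the test among the lists for slow and fast fibers, fat, red blood cells, neutrophils, macrophages, tendon, endothelium, nerve and dividing cells. It was higher in Fed by 0.52 on the log2 scale. Red blood cell markers ran from 2717 TPM to 12639 TPM in Fed, with Fed 2 at the top, and from 3762 to 5625 in Pre. Tendon markers summed to between 494 and 817 TPM in Fed and between 745 and 888 in Pre. *Chad*, *Comp*, *Fmod* and *Tnmd*, proteins of tendon and cartilage matrix, had log2 fold changes of -0.63, -0.52, -0.50 and -0.54 (FDR 0.081, 0.11, 0.095 and 0.19), and all 4 were lower without Fed 2 and Fed 3, with a list median of -0.68. Nerve and Schwann cell markers summed to between 91.7 and 353 TPM in Fed and between 127 and 824 in Pre. In a bulk sample fewer cells of a type and less RNA per cell cannot be told apart.

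The first question was whether the Fed mice carried the signs of a fast, as the condition field says, or of feeding, as the title says. *Pdk4*, the kinase that inhibits pyruvate dehydrogenase, had 251, 535, 752 and 298 TPM in Fed 1 to Fed 4 and 554, 325, 459 and 410 in Pre 1 to Pre 4, whereas the 8 Mid libraries lay between 1361 and 5885. The Fed and Pre values overlapped throughout (log2 fold change 0.01, SE 0.28, FDR 0.99), and no Fed library reached the lowest Mid library. The upstream promoter of *Ppargc1a*, the gene of the coactivator PGC-1alpha, whose peak is at base 51567727 of chromosome 5, gave 0.669, 2.37, 3.81 and 6.06 TPM in Fed against 5.60, 2.36, 1.47 and 19 in Pre. In Mid it ran from 25.9 to 351. *Fasn*, fatty acid synthase, lay between 34.9 and 150 TPM in Fed, between 40.0 and 120 in Pre and between 3.08 and 26.5 in Mid. By these genes the Fed libraries stood with the Pre libraries and apart from Mid.

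Of other genes of fasting, *Angptl4* and *Fbxo32* overlapped between Fed and Mid, and *Mt1* did not. *Angptl4*, an inhibitor of lipoprotein lipase, had between 3.86 and 19.8 TPM in Fed, between 4.29 and 13 in Pre and between 18.5 and 91.3 in Mid. *Mt1*, a metallothionein, had between 37.5 and 76.9 in Fed, between 63.2 and 114 in Pre and between 120 and 1291 in Mid. Its neighbour *Mt2* had a log2 fold change of -0.59 (FDR 0.52). *Fbxo32*, the ubiquitin ligase atrogin-1 of muscle breakdown, had between 108 and 183 TPM in Fed, between 99.5 and 137 in Pre and between 127 and 409 in Mid. Fed 2 for *Angptl4* and Fed 3 for *Fbxo32* were above the lowest Mid library, which for both was Mid 6. The next Mid library was at 27.2 TPM for *Angptl4* and at 245 for *Fbxo32*, above every Fed library. Mid 6 was also the lowest Mid library for *Pdk4*, *Ppargc1a* and *Mt1*. None of these genes was called between Fed and Pre. *Atf3*, a stress-induced transcription factor, had 5.91, 7.68, 7.30 and 12.8 TPM in Fed and 9.78, 6.62, 4.26 and 8.35 in Pre (FDR 0.71).

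*Angptl8*, a secreted protein made in response to feeding that redirects lipoprotein lipase, was the food gene with the widest gap between the 2 fed groups. It had 0.360, 0.791, 0.564 and 1.11 TPM in Fed 1 to Fed 4 and 2.93, 1.90, 1.58 and 3.31 in Pre 1 to Pre 4, so every Fed library was below every Pre library. Its log2 fold change of -1.78 (SE 0.63) did not pass the test over all promoters (FDR 0.062), and an exact two-sided permutation test of the 4 against 4 libraries gave 0.0286, the smallest p that it can give. The 8 Mid libraries were lower still, between 0 and 0.240 TPM, and the 4 Post libraries lay between 0.664 and 6.20.

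**Figure D1:**
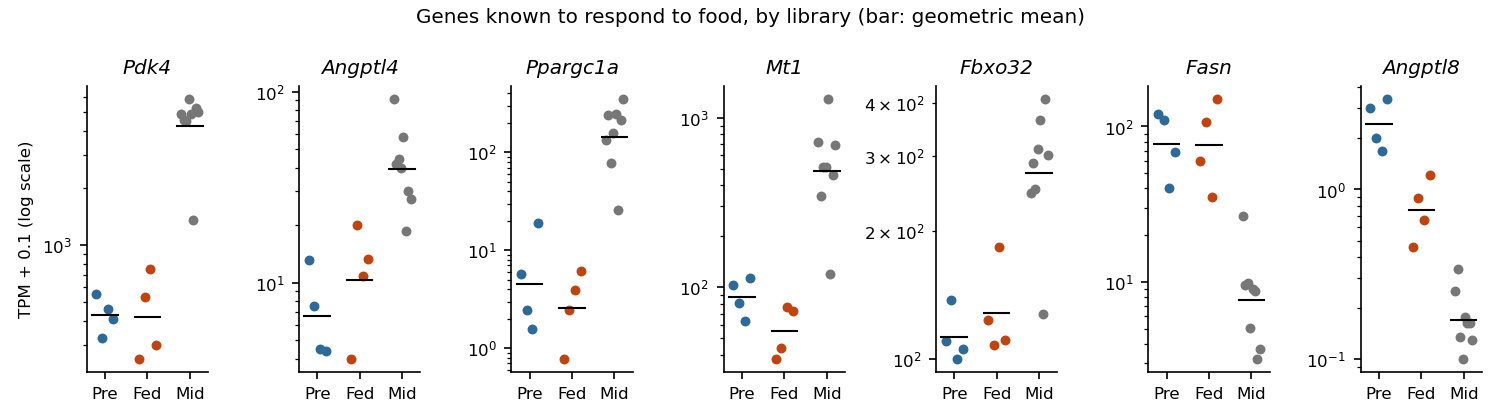
TPM + 0.1 on a log axis of 7 genes known to respond to food, with 1 point per library and a bar at the geometric mean, for Pre (4), Fed (4) and Mid (8). Pre and Fed points lie at the same height for Pdk4 (251 to 752 TPM in Fed, 325 to 554 in Pre) and apart for Angptl8, where all Fed points are under all Pre points.

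The second question was which promoters differed between the 2 groups with food. Fed was higher than Pre at 634 of the 10776 promoters (5.88%) and lower at 573 (5.32%), and 2940 had an unadjusted p under 0.05. The changes were small. The called increases had a median log2 fold change of 0.57 and 335 of them were under 1.5-fold, while the called decreases had a median of -0.36 and 494 were under 1.5-fold. The median over all promoters was 0.02. At least 2-fold changes were seen at 101 promoters upward and 35 downward. All 4 Fed libraries lay above all 4 Pre libraries in TPM at 459 of the called increases, against 10.5% of all promoters, and below them at 122 of the called decreases, against 1.89% of all promoters. On the scale of the test, with each library divided by its TMM factor, the counts were 420, against 9.08% of all promoters, and 447, against 8.76%.

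These counts depended on single libraries and on TMM. Without Fed 2 and Fed 3, 440 promoters were higher (4.08%) and 335 lower (3.11%), among them 347 of the 634 and 306 of the 573. Leaving out Fed 2 alone left 106 higher and 86 lower, and leaving out Fed 1 alone left 121 and 106, whereas 1024 and 949 were called without Fed 3. Without Pre 1, Pre 2, Pre 3 or Pre 4 the counts were 151 and 192, 228 and 289, 307 and 282, and 399 and 414. With library sizes in place of TMM factors 2 were higher and 4 lower, so that increases made up 33.3% of the calls against 52.5%, and limma on the deposited TPM gave 3 and 13 (18.8%). For scale, the same fit called 1659 promoters higher (15.4%) and 1594 lower (14.8%) in Mid than in Pre, 1479 higher (13.7%) and 1304 lower (12.1%) in Dep, 1997 higher (18.5%) and 1607 lower (14.9%) in HiT, and 113 higher (1.05%) and 86 lower (0.798%) in Post than in Pre. These comparisons share the 4 Pre libraries.

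The position of single Fed libraries depended on the scale. Among the 573 decreases, Fed 1 was below every Pre library in TPM at 570, Fed 2 at 573, Fed 4 at 371 and Fed 3 at 127, and after TMM at 571, 570, 553 and 461. Among the 634 increases, Fed 1 was above every Pre library in TPM at 545, Fed 2 at 588, Fed 3 at 588 and Fed 4 at 619, and after TMM at 556, 633, 501 and 616. The TMM factors of 1.21 in Fed 3 and 1.15 in Fed 4 thus set how many decreases show in their TPM. High factors were not particular to Fed, as Pre 2 had 1.15 and Pre 4 had 1.10. The make-up of the libraries also differed within both groups. Clusters with no annotated 5′ end held 31.2, 35.4, 17.5 and 22.9% of the tags in clusters in Fed 1 to Fed 4. In Pre 1 to Pre 4 they held 28.6, 20.8, 30.9 and 22.8%. The part of this difference in the calls was not tested.

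**Figure D2:**
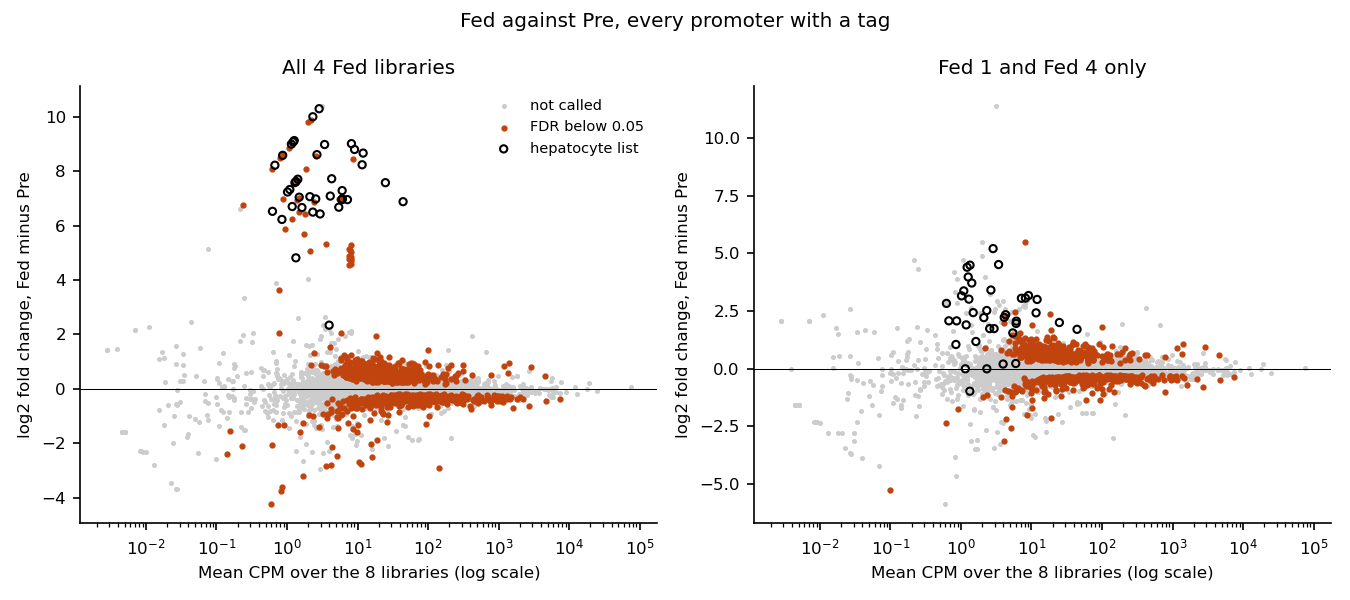
Log2 fold change of Fed minus Pre against the mean CPM of the 8 libraries (log axis) for every promoter with a tag, with all 4 Fed libraries on the left and with Fed 1 and Fed 4 on the right. Orange points have an FDR below 0.05. Open circles are the 38 hepatocyte genes, a list put together after these values were seen, all called on the left with a median of 7.31 and none on the right.

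The tallest increases were liver genes and came from 2 libraries. Called genes with the largest log2 fold changes were *Ambp*, *Cyp2c29*, *Cyp2c50*, *Ugt2b5*, *Cyp2d10*, *Apoa2*, *Rgn*, *Fga*, *Ces3a*, *Mup20* and *Fabp1*. They make plasma proteins, drug-metabolizing enzymes and the liver fatty acid-binding protein. *Ambp*, the precursor of a plasma protease inhibitor, had 0 TPM in Fed 1, 12 in Fed 2, 10.9 in Fed 3 and 0.314 in Fed 4 and no tag in Pre, which makes the Fed mean at least 214-fold higher than a floor of 3 tags over the 4 Pre libraries. *Fabp1* had 0, 41.3, 57.6 and 0.942 TPM in Fed and between 0 and 0.188 in Pre. For both genes Fed 1 was no higher than Pre. All 38 genes of the hepatocyte list were called higher, against 6.68% of all genes. As the list was put together after these values were seen, that count is not a test. Without Fed 2 and Fed 3, 0 of the 38 were called, and edgeR's median log2 fold change of the list was 2.29. Of the 101 promoters that were at least 2-fold higher, 38 belonged to that list, 76 had a mean of Fed 2 and Fed 3 over 10 times that of Fed 1 and Pre, and 82 were not called without these 2 libraries. *Arg1*, arginase 1, which stood in the list of load and injury genes and is also a liver enzyme, was also highest in Fed 2 and Fed 3. It had 0.154, 8.13, 5.19 and 0.121 TPM in Fed 1 to Fed 4 and between 0 and 0.113 in Pre. Unlike the hepatocyte sum, it was not higher in Fed 4 than in Fed 1.

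Some functional groups had many members among the promoters that were lower in Fed, though most of the decreases lay outside them. Each list below was tested gene by gene, by the promoter of smallest p of each gene, where 517 of all 9054 genes were lower (5.71%) and 605 higher (6.68%), and the median of all genes was 0.02. Of 48 measured genes of cytosolic ribosomal proteins, 29 were lower and 0 higher, and all 48 had a log2 fold change below 0 (median -0.25). Of 49 nuclear genes of the respiratory chain, 27 were lower and 0 higher, and all 49 were below 0 (median -0.30). Of 31 proteasome genes 12 were lower (median -0.19), and of 23 genes of fatty acid oxidation 6 were lower (median -0.20), with 0 higher in either list. Without Fed 2 and Fed 3 the counts were 11, 15, 6 and 4, and the medians were -0.26, -0.32, -0.18 and -0.25. By edgeR with library size only, and by limma on the deposited TPM, 0 members of these 4 lists were called. With 1 library left out, called ribosomal protein genes numbered 10 without Fed 1, 11 without Fed 2, 30 without Fed 3 and between 15 and 18 without a Pre library, and called respiratory chain genes 5, 4, 40 and between 9 and 20. For the proteasome these counts ran from 1 to 17, and for fatty acid oxidation from 0 to 10.

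After TMM, all Fed libraries were below all Pre libraries in both of the larger lists. Summed over the ribosomal protein list, activity in TPM was 4554, 4418, 5938 and 5752 in Fed 1 to Fed 4 and 5830, 6444, 5690 and 6325 in Pre 1 to Pre 4, with overlap. Divided by the TMM factors it was 4716, 4807, 5162 and 5282 CPM in Fed and 5993, 5882, 6128 and 6055 CPM in Pre, and the groups were apart. For the respiratory chain the sums after TMM were 40002, 36960, 49292 and 45964 CPM in Fed and 53813, 53045, 54502 and 53565 CPM in Pre, with Fed 3 the nearest to Pre. After TMM all 4 Fed libraries were below every Pre library at 28 of the 29 called ribosomal protein genes and 24 of the 27 called respiratory chain genes, and in TPM at 8 and 1. The same held for 447 of all 573 called decreases after TMM and for 122 in TPM. Over all promoters, called or not, the share after TMM was 8.76%. The genes were called on the TMM scale, so these counts are not separate evidence.

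**Figure D3:**
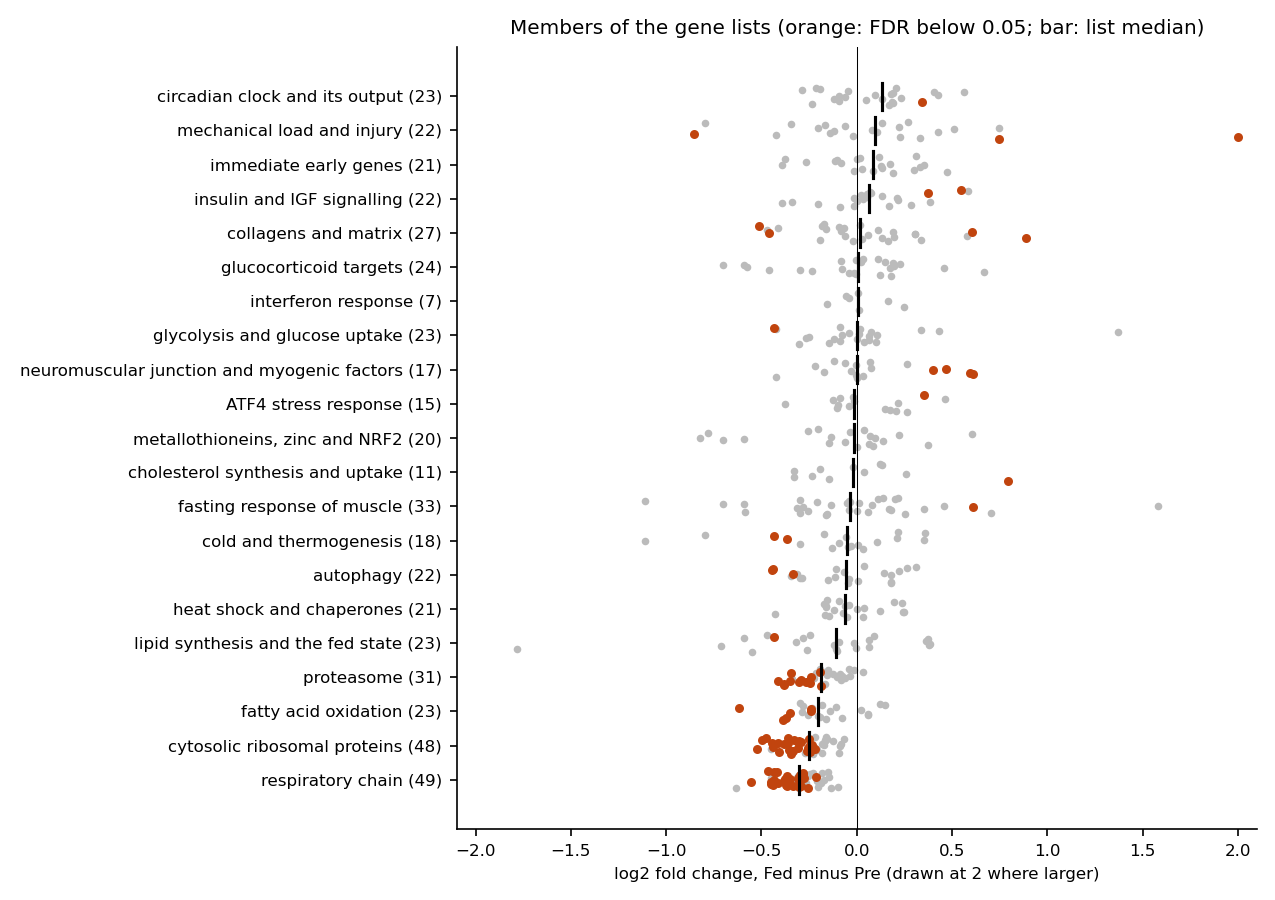
Log2 fold change of Fed minus Pre for the measured members of 21 gene lists, 1 point per gene by its promoter of smallest p, with called genes in orange and a bar at the list median. The respiratory chain (median -0.30) and the ribosomal proteins (median -0.25) lie wholly left of 0, and most other lists are centred near 0.

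Ribosomal proteins form the large and small subunits of the cytosolic ribosome. *Rps15*, of the small subunit, had 136, 128, 171 and 162 TPM in Fed 1 to Fed 4 and 185, 205, 187 and 218 in Pre 1 to Pre 4 (log2 fold change -0.44, SE 0.08, FDR 0.0034). All Fed libraries were below all Pre libraries, and the same held for *Rpl30* (-0.52) and *Rps27* (-0.50). *Nop10*, a protein of the particles that modify ribosomal RNA and hold telomerase RNA, was not a list member and had the smallest FDR among the decreases, with 89.1, 79.2, 140 and 117 TPM in Fed and 168, 181, 158 and 148 in Pre (log2 fold change -0.67, SE 0.10, FDR 0.0022). Its groups did not overlap, and Fed 3 was the Fed library nearest to Pre.

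Genes of ribosomal proteins are known to start transcription at a C that opens a run of pyrimidines, the terminal oligopyrimidine tract, through which growth signals control their translation. The 60 bases around the peak are shown for 4 of the genes that were lower, to compare this start with those of 2 respiratory chain genes that were also lower. The sequences are from RefSeq, build GRCm38.p6, and run 5′ to 3′ on the strand of the gene. Capitals mark the peak base and, where it is a C, the run of C and T that it opens.
Rps15, chr10:80292410-80292469, plus strand: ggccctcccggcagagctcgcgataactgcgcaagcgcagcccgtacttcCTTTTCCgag
Rpl15, chr14:18270977-18271036, minus strand: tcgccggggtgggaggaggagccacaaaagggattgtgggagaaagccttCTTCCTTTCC
Rps12, chr10:23787191-23787250, minus strand: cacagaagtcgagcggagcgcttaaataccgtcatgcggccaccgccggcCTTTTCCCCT
Rplp2, chr7:141447599-141447658, plus strand: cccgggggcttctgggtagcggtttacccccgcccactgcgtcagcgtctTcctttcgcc
Ndufa5, chr6:24527547-24527606, minus strand: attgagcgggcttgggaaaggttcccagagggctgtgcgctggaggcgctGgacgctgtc
Uqcrh, chr4:116075031-116075090, minus strand: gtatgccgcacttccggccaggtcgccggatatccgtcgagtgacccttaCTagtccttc

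In the first 3 the peak is a C that opens 7 or more pyrimidines, in *Rplp2* the peak lies on a T just before the run, and in both respiratory chain genes no such run follows. Over the 4199 genes whose window could be read, 52 (1.24%) had a C at the peak that opened a run of at least 5 C or T bases, searched on the strand of the gene. The share was 16 of 23 ribosomal protein genes (69.6%), 0 of 21 respiratory chain genes and 0 of 16 proteasome genes. It was 17 of 204 genes called lower (8.33%), 6 of 191 (3.14%) after the ribosomal protein list was taken out, and 0 of 307 called higher. Of the 28 genes with the run that were neither list members nor named as ribosomal proteins, 3 were lower and their median log2 fold change was 0.03. No respiratory chain or proteasome gene with a window, lower or not, started in this way.

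In the respiratory chain, *Ndufa5*, a subunit of complex I, had 215, 191, 364 and 283 TPM in Fed and 372, 390, 373 and 357 in Pre (log2 fold change -0.56, SE 0.10, FDR 0.0058). In TPM Fed 3 fell inside the range of Pre, and after TMM it had 317 CPM against 342 to 402 CPM in Pre, so that all Fed libraries were below. *Cox8b*, the muscle form of a complex IV subunit, had 3552, 3256, 5518 and 4522 TPM in Fed and 5410, 5939, 5424 and 5463 in Pre (-0.45). *Uqcrq*, of complex III, had a log2 fold change of -0.47 and *Ndufa2*, of complex I, -0.45. All 5 complexes of the chain had called members among these 27 genes, from *Sdhd* of complex II (-0.28) to *Atp5c1* of the ATP synthase (-0.26), both picked after their values were seen.

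The 6 called genes of fatty acid oxidation were the smallest of these sets. *Fabp3*, the fatty acid-binding protein of heart and muscle, had 1449, 1685, 3345 and 2453 TPM in Fed and 3047, 3152, 3104 and 3836 in Pre (log2 fold change -0.62, SE 0.18, FDR 0.032). *Acaa2*, the last enzyme of the beta-oxidation cycle, was lower by 0.39 on the log2 scale, *Acadm*, the medium-chain acyl-CoA dehydrogenase, by 0.37, and *Decr1*, needed for unsaturated fatty acids, by 0.35. *Slc2a4*, the insulin-regulated glucose transporter GLUT4, had 203, 170, 283 and 251 TPM in Fed and 296, 297, 277 and 316 in Pre (log2 fold change -0.43, FDR 0.0068). It was the 1 called member of both the list of lipid synthesis and the fed state (23 measured) and the list of glycolysis and glucose uptake (23 measured). In the proteasome, the core subunits *Psma2* (-0.38), *Psma5* (-0.38), *Psmb2* (-0.35) and *Psmb3* (-0.41) were lower. After TMM, Fed 1, Fed 2 and Fed 4 were below every Pre library at all 12 called proteasome genes and Fed 3 at 7. Over all 573 called decreases Fed 1 was so at 571, Fed 2 at 570, Fed 4 at 553 and Fed 3 at 461.

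Several secreted proteins and stromal genes were lower without belonging to these groups. *Dkk2*, a secreted modulator of Wnt signalling, had 17.4, 11.1, 20 and 16 TPM in Fed and 46.6, 31.4, 27 and 41.9 in Pre (log2 fold change -1.23, SE 0.26, FDR 0.0089). The groups did not overlap, and the call held without Fed 2 and Fed 3 (-1.16, FDR 0.040). Its mean was also low in the other groups, at 18.9 TPM in Mid, 19.3 in HiT, 15.8 in Dep and 17.5 in Post, so that Pre was the group with the high level. *Angptl7*, a secreted protein of the angiopoietin-like family, had 74.0, 81.0, 65.5 and 56.6 TPM in Fed and 122, 95.8, 120 and 214 in Pre (-0.998, SE 0.25, FDR 0.016). Here Mid, at 304 TPM, and Dep, at 317 TPM, were above Pre and Post was at 95.6, so Fed was the lowest group. *Apod*, a lipid-binding protein of connective tissue, was lower by 0.88 on the log2 scale. The summed tendon markers after TMM lay between 470 and 761 CPM in Fed and between 789 and 850 CPM in Pre, and their part in these decreases was not tested.

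Other decreases were spread over roles. *Coq8a*, of coenzyme Q synthesis, had a log2 fold change of -0.92, and *Cryab*, a small heat shock protein of the sarcomere, -0.85 at a secondary cluster of 2.73 to 3.26 TPM in Fed and 3.31 to 6.47 in Pre. The histone gene *Hist1h4h* was chosen after its values were seen. It had 290, 261, 415 and 320 TPM in Fed and 479, 470, 525 and 458 in Pre (-0.63), with no overlap. Histone H4 genes have near-identical copies, so its tags may be shared between them.

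Processed pseudogenes took a large share of the decreases. Of 593 clusters at processed pseudogenes 104 were lower (17.5%) and 5 higher (0.843%), whereas of 8731 at protein-coding genes 402 were lower (4.6%) and 591 higher (6.77%). Without Fed 2 and Fed 3, 59 of the 593 were lower. *Rps2-ps10* had 50.4, 47.8, 66.1 and 56.2 TPM in Fed and 132, 139, 131 and 129 in Pre (log2 fold change -1.30, SE 0.21, FDR 0.0026), the largest decrease among the genes named by size. *Gm7432* had 19.3, 16.9, 19.2 and 20.8 TPM in Fed and 34.9, 34.6, 35.6 and 39.5 in Pre (-0.95). Neither overlapped between the groups. *Rpl27a-ps1* (-0.91), *Rpl10-ps5* (-1.01), *AC122253.3* (-1.08), *Gm15730* (-0.92), *Gm2387* (-0.96) and *Gm14859* (-0.94) completed this set with values from 1.17 to 32.2 TPM. Pseudogenes share reads with the genes they were copied from, and a tag placed on one can come from its parent.

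Clusters away from an annotated 5′ end gave a further group of decreases on the strand opposite to exons, among them exons of abundant muscle genes. Of 70 such clusters over an exon of a gene on the other strand, 15 were lower (21.4%) and 0 higher, and 9 were lower without Fed 2 and Fed 3. Of 569 clusters over an exon on the same strand 9 were lower (1.58%). The cluster opposite to *Acta1*, the skeletal muscle actin gene, with its peak at base 123892038 of chromosome 8 on the plus strand, had 5.25, 5.69, 14.2 and 8.72 TPM in Fed and 30.1, 29.5, 36.3 and 24.0 in Pre (log2 fold change -1.89, SE 0.36, FDR 0.0066). No Fed library reached the lowest Pre library. Another at *Acta1* (-1.25), a pair at *Atp5b*, the beta subunit of ATP synthase (-2.79 and -2.13), and single ones at *Slc25a4*, the ATP carrier of muscle mitochondria (-2.46), *Tcap*, a protein of the Z-disc (-1.14), and *Tnni1*, slow troponin I (-1.43), were also lower. On the sense strand *Tnni1* itself was at 282, 278, 410 and 365 TPM in Fed and 306, 323, 298 and 321 in Pre at its most active promoter (log2 fold change 0.06, FDR 0.85). The level of these antisense clusters also varied within Pre, as at the *Atp5b* cluster with 9.81, 4.604, 10.1 and 3.95 TPM in Pre 1 to Pre 4.

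Another wide gap was seen within an intron of *Jarid2*, a Polycomb cofactor. The cluster at base 44869593 of chromosome 13 had 45.5, 46.3, 23.1 and 18 TPM in Fed and 342, 114, 378 and 156 in Pre (log2 fold change -2.92, SE 0.86, FDR 0.031). Pre 1 and Pre 3 were the high libraries. The same pair was high at the clusters opposite to *Lars2* (29.8, 6.70, 29.7 and 8.46 TPM in Pre 1 to Pre 4) and *Mir6236* (34.7, 16.4, 36.6 and 20.1), where Fed lay between 1.59 and 5.76 TPM. Both of these lie over an exon on the other strand and so belong to the group of the paragraph before. Pre 1 and Pre 3 were also the high libraries at the *Atp5b* cluster given there. None of the clusters at *Jarid2*, *Lars2* and *Mir6236* was called without Fed 2 and Fed 3. Their log2 fold changes were as large there, at -3.00, -2.94 and -2.76.

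**Figure D4:**
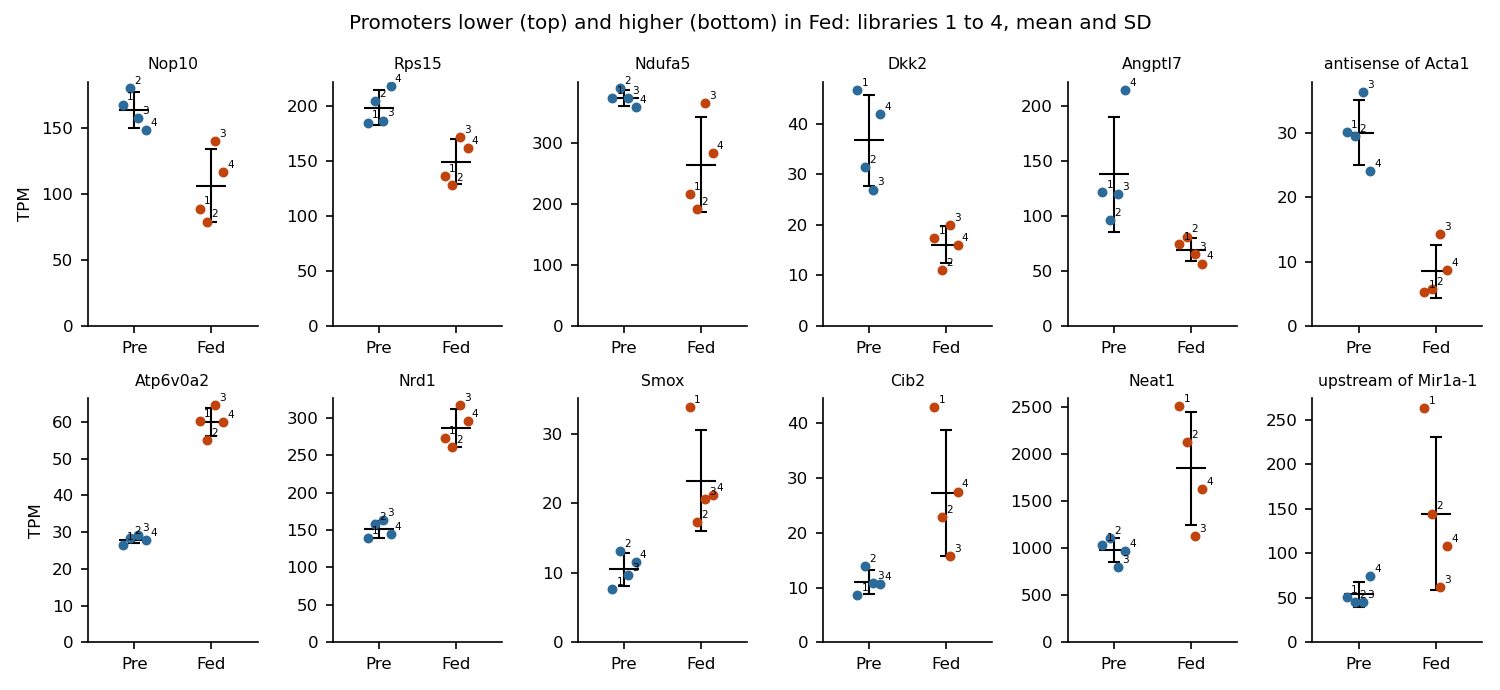
TPM of 12 promoters in Pre and Fed, with the 4 libraries of each group as numbered points and bars at the mean with SD. The upper row shows decreases such as Dkk2 (11.1 to 20 TPM in Fed, 27 to 46.6 in Pre) and the lower row increases such as Atp6v0a2 (55.1 to 64.6 in Fed, 26.6 to 29.2 in Pre), and Fed 3 lies among the Pre points for Ndufa5, where TPM are not corrected for TMM factors.

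Other increases did not come with the liver transcripts. Of the 101 promoters that were at least 2-fold higher, 19 were also called without Fed 2 and Fed 3, and the genes described next were chosen after their values were seen unless the text says otherwise. Many were chosen by that call. It rests on Fed 1 and Fed 4 among the Fed libraries, so the choice favours promoters that were high in Fed 1. *Atp6v0a2*, a membrane subunit of the vacuolar proton pump that acidifies lysosomes and Golgi, had 60.1, 55.1, 64.6 and 59.9 TPM in Fed and 26.6, 28.3, 29.2 and 27.8 in Pre (log2 fold change 1.07, SE 0.22, FDR 0.0088). The spread inside each group was small beside the gap. Means of the other groups lay between, at 42.3 TPM in Mid, 35.5 in HiT, 34.5 in Dep and 30.2 in Post. *Nrd1*, nardilysin, a metalloprotease, had 273, 260, 317 and 295 TPM in Fed and 139, 158, 163 and 145 in Pre (0.89, SE 0.21, FDR 0.013), and Mid was at 225 TPM. Both genes were as high in Fed 1 and Fed 4 as in the 2 libraries with liver transcripts.

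Several increases among the genes so chosen were led by Fed 1. *Smox*, spermine oxidase of polyamine breakdown, had 33.8, 17.4, 20.6 and 21.2 TPM in Fed and 7.72, 13.1, 9.64 and 11.5 in Pre (log2 fold change 1.14, SE 0.22). *Cib2*, a calcium- and integrin-binding protein, had 42.9, 22.8, 15.7 and 27.5 TPM in Fed and 8.65, 13.9, 10.8 and 10.6 in Pre (1.31, SE 0.34). *Usp48*, a deubiquitinase, had 39.6, 30.5, 20.5 and 25.9 TPM in Fed and between 12.6 and 13.4 in Pre (1.16). *Prkca*, protein kinase C alpha, had 78.3, 51.9, 31 and 44.9 TPM in Fed and between 24.1 and 29.4 in Pre (0.93). In these genes Fed 1 was the highest library and all Fed libraries were above Pre in TPM, though not after TMM for *Prkca*. Fed 1 is also the library with 1617 TPM of *Myh4*, and the part of fast fibers in these increases was not tested.

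Other single genes were higher in all Fed libraries. *Phldb2*, a cortical protein found at the neuromuscular junction, had 12.9, 12.5, 9 and 11.2 TPM in Fed and 3.99, 6.35, 4.29 and 4.40 in Pre (log2 fold change 1.26, SE 0.24, FDR 0.0066). *Agrn*, agrin, which gathers acetylcholine receptors at the junction, had 17.5, 18.7, 12.1 and 14.3 TPM in Fed and between 5.66 and 9.67 in Pre (1.04). *Mast4*, a kinase of the microtubule-associated family, was higher at its upstream promoter by 1.23, and *Snx29*, a sorting nexin and 1 of the 6 increases of smallest FDR, by 1.04. None of these 4 groups of values overlapped. Starts of 3 of these genes are shown because they differ from those of the ribosomal protein genes, with the peak base and any C and T run from it in capitals.
Phldb2, chr16:45844358-45844417, minus strand: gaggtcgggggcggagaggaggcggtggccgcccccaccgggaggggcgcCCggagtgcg
Mast4, chr13:103334455-103334514, minus strand: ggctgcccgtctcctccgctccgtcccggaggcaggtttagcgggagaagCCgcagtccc
Snx29, chr16:11322872-11322931, plus strand: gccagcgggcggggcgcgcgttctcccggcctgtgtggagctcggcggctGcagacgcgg
Their peaks are followed by at most 1 more C, and the windows are rich in G and C. The median G and C content was 68.3% over all 4199 windows, 68.3% in the 307 called higher and 65.0% in the 204 called lower.

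The list of neuromuscular junction and myogenic factors had 4 of 17 measured members higher and 0 lower, 3 by the most active promoter and 1 without Fed 2 and Fed 3, with a median of 0.00. Without these libraries the called members kept log2 fold changes of 0.76 (*Hdac4*), 0.59 (*Hdac5*), 0.43 (*Mef2a*) and 0.43 (*Mef2c*). *Hdac5*, a class IIa deacetylase that represses MEF2 factors, had 76.3, 64.3, 78.3 and 63.8 TPM in Fed and 45.4, 45.4, 47.3 and 45.3 in Pre (log2 fold change 0.59, SE 0.13, FDR 0.010) at a cluster that lies within the window of another gene too. The groups were far apart, and the downstream promoter of *Hdac5* had 14.6 TPM in Pre and 17.8 in Fed (FDR 0.30). *Hdac4*, of the same class, was higher by 0.61 with overlapping groups, *Mef2a*, one of the factors they repress, by 0.40, and *Mef2c* by 0.47 at a minor promoter of 9.27 TPM in Pre. At the main promoter of *Mef2c* the means were 421 TPM in Pre and 446 in Fed (FDR 0.78), and *Mef2d* had a log2 fold change of 0.08 (FDR 0.71).

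The increases of smallest FDR were *Fhod3*, *Ddx17*, *Snx29*, *Eif5b*, *Stx6* and *Nudc*, and for all of them the groups did not overlap. *Fhod3*, a formin that builds actin filaments of the sarcomere, had 36.0, 27.6, 28.2 and 34.9 TPM in Fed and 13.4, 17.9, 16.95 and 19.5 in Pre (log2 fold change 0.88, SE 0.13, FDR 0.0022). *Ddx17*, an RNA helicase, was higher by 0.58, and *Eif5b*, which joins the ribosomal subunits at the start codon, had 86.7, 78.3, 100 and 98.1 TPM in Fed and between 51.3 and 61.5 in Pre (0.66). *Stx6*, a SNARE of the trans-Golgi network, was higher by 0.76 and *Nudc*, a cochaperone of nuclear movement, by 0.56. All 6 were also called without Fed 2 and Fed 3.

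Vascular and stromal genes contributed a few increases. *Stab1*, a scavenger receptor of endothelium and macrophages, had 7.51, 9.49, 6.35 and 8.96 TPM in Fed and 3.19, 4.19, 2.56 and 4.89 in Pre (log2 fold change 1.13). *Cd248*, endosialin of pericytes and fibroblasts, had 28.3, 31.4, 27.8 and 28.9 TPM in Fed and between 11.2 and 16 in Pre (1.03), a narrow range in Fed. In the list of collagens and matrix 2 of 27 members were higher and 2 lower (median 0.01). *Col3a1*, type III collagen, whose cluster also lies within the window of a second gene, had 277, 542, 340 and 472 TPM in Fed and 163, 324, 206 and 189 in Pre (0.89), and *Fbn1*, fibrillin 1 of microfibrils, was higher by 0.61. *Thbs1*, thrombospondin 1 (-0.51), and *Dcn*, the proteoglycan decorin (-0.46), were lower. By the most active promoter of each gene, 1 member of the list was lower. HiT was the group with most *Col3a1*, at 917 TPM on average.

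A cluster upstream of the muscle microRNA gene *Mir1a-1* was higher. Its peak is at base 180385605 of chromosome 2 on the plus strand, 3443 bases before the annotated *Mir1a-1* hairpin at chr2:180389048-180389124, and *Mir133a-2*, of the same cluster of microRNA genes, lies further downstream. Both encode microRNAs known for muscle. The cluster had 263, 145, 61.7 and 108 TPM in Fed and 51.0, 45.3, 45.3 and 74.2 in Pre (log2 fold change 1.45, SE 0.34, FDR 0.013), and 1.80 (FDR 0.0076) without Fed 2 and Fed 3. Fed 1, the highest library, is kept in the second fit, and Fed 3, which lay under Pre 4, is left out. The value of 1.80 therefore rests more on Fed 1. Between the microRNA genes a second cluster, at base 180391707 and 6672 bases before *Mir133a-2*, had 11.6, 6.26, 1.66 and 4.71 TPM in Fed and between 1.598 and 2.86 in Pre (1.56). In the other groups the first cluster had means of 38.6 TPM in Mid, 27.1 in HiT, 28.7 in Dep and 64.2 in Post.

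Some non-coding and intronic starts, picked after their values were seen, were highest in Fed 1. *Neat1*, the nuclear RNA that builds paraspeckles, had 2508, 2123, 1132 and 1626 TPM in Fed and 1030, 1108, 804 and 970 in Pre (log2 fold change 0.93, SE 0.21, FDR 0.011). After TMM, Fed 3 had 984 CPM of *Neat1*, within the range of Pre (866 to 1059 CPM). The non-coding RNA *5430431A17Rik* had 50.5, 23.8, 14.9 and 20.2 TPM in Fed and between 12.6 and 14.3 in Pre (1.02). Its Fed 3 value also lay within the range of Pre after TMM. Clusters inside its intron at bases 44476504 and 44480961 of chromosome 7 were higher by 1.94 and 2.04, with Fed 1 at 57.4 and 18.7 TPM and Fed 3 at 8.75 and 2.12. A cluster within an intron of *Smox*, at base 131506605 of chromosome 2, had 48.5, 6.42, 0.776 and 4.83 TPM in Fed and 0, 1.71, 0.0377 and 0.789 in Pre (4.69, SE 1.54, FDR 0.049). On the strand opposite to *Mef2c*, just upstream of its main promoter, a cluster at base 83503604 of chromosome 13 had 16.8, 8.92, 4.80 and 8.07 TPM in Fed and between 3.64 and 5.10 in Pre (1.19). Of 76 clusters at lincRNA genes 7 were higher (9.21%) and 2 lower (2.63%). Fed 1 was the highest and Fed 3 the lowest Fed library at each of the single promoters given in this paragraph. As they were picked after their values were seen, that order is not a result about such starts.

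The direction of the difference went with the length of the transcript. Among protein-coding genes with a mean of at least 1 CPM, the median length of the longest annotated transcript was 4456 bases in 574 genes called higher, 1657 in 399 called lower and 3368 in 7182 not called. The genomic span had medians of 50777, 8107 and 24304 bases. When the genes were split by transcript length into 4 classes of nearly equal size, 82, 92, 145 and 255 were higher from the shortest to the longest class, and 249, 72, 54 and 24 were lower. The median log2 fold change went from -0.10 over 0.01 and 0.06 to 0.17, and from -0.13 to 0.18 without Fed 2 and Fed 3. For Post against Pre, which shares the Pre libraries, the 4 medians lay between -0.05 and 0.00. For Mid against Pre, which shares them too, the medians were -0.10, 0.00, 0.03 and 0.08, so that a trend in the same direction was present there.

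The trend differed in size between Fed libraries. The median of log2(TPM + 0.1) relative to the mean of Pre was higher in the longest than in the shortest class by 0.45 in Fed 1, 0.39 in Fed 2, 0.078 in Fed 3 and 0.19 in Fed 4. In Pre 1 to Pre 4 the same difference was -0.034, -0.038, 0.0033 and 0.069, so every Fed library was above every Pre library. The order of the Fed libraries was that of *Neat1*. Of the ribosomal protein genes 41 of 48 were in the shortest class, of the respiratory chain 38 of 49 and of the proteasome 21 of 31. The median of the shortest class was -0.10, and the medians of these lists were -0.25, -0.30 and -0.19. The part of transcript length, and of RNA quality, in the decreases was not tested.

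**Figure D5:**
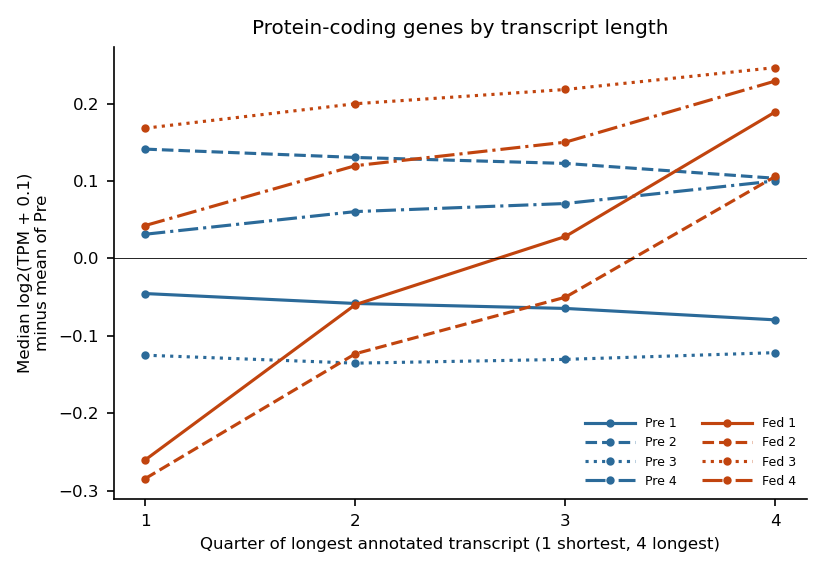
Median log2(TPM + 0.1) minus the mean of the 4 Pre libraries for protein-coding genes in 4 classes of longest annotated transcript, from shortest to longest, with 1 line per library. The Fed lines climb to the right, by 0.45 in Fed 1 and 0.078 in Fed 3, whereas the Pre lines are nearly flat (-0.038 to 0.069).

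Most lists of regulated genes showed little difference between the groups with food. In the fasting response of muscle 1 of 33 measured members was called (*Hdac4*), with a median log2 fold change of -0.03, whereas the median of the same list was 1.29 for Mid against Pre, which shares the Pre libraries. The list of lipid synthesis and the fed state had a median of -0.11 against -1.24 for Mid. Among 23 clock genes *Clock*, which activates the circadian loop, was higher by 0.34, *Per1*, a repressor of the loop, had 1.34, 1.01, 1.06 and 1.26 TPM in Fed and 1.16, 1.03, 0.565 and 1.28 in Pre (FDR 0.77), and *Dbp*, an output factor, had a log2 fold change of 0.13 (FDR 0.59). Insulin signalling had 2 of 22 members higher, *Tbc1d4*, the AS160 regulator of GLUT4 transport (0.55), and *Rptor*, the raptor subunit of mTORC1 (0.37). The ATF4 list had 1 of 15, *Vldlr*, a lipoprotein receptor (0.35).

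The remaining lists can be given in short. Autophagy had 3 of 22 members lower, *Map1lc3b* (-0.45) and *Gabarap* (-0.33), which coat autophagosomes, and *Sqstm1*, the cargo receptor p62 (-0.44). The cold list had 2 of 18 lower, *Rbm3*, a cold-inducible RNA-binding protein (-0.36), and *Slc2a4*. Load and injury genes had *Ankrd1*, a titin-binding repeat protein, higher with 45.5, 46.4, 74.8 and 53.0 TPM in Fed and 29.4, 34.6, 28.9 and 34.4 in Pre (0.75). *Arg1* was also higher, and *Cryab* was lower at its secondary cluster. HiT had a mean of 528 TPM of *Ankrd1*. By edgeR 0 members were called among 21 immediate early genes, 21 heat shock genes, 24 glucocorticoid targets, 7 interferon genes and 20 genes of metallothioneins, zinc and NRF2. Their members of smallest p were *Ier5* (0.35, FDR 0.096) and *Fosl2* (0.33), *Dnaja1* (-0.43, FDR 0.070) and *Hsph1* (0.24), *Mt1* (-0.70) and *Errfi1* (0.67, FDR 0.19), *Bst2* (0.25) and *Ifi35* (0.16), and *Sod2* (-0.25, FDR 0.078) and *Slc30a2* (0.60).

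Promoters of 1 gene seldom moved apart. Of 449 genes with at least 2 tested promoters 87 had a called one, 6 had 2 or more called in 1 direction, and 1 had promoters called in opposite directions. That gene was *Dysf*, dysferlin of membrane repair. Its promoter at base 84019371 of chromosome 6 had 32.4, 24.3, 19.4 and 20.5 TPM in Fed and 13.3, 15.6, 14.2 and 19.5 in Pre (log2 fold change 0.62, FDR 0.016), and the one at base 84210405 had 5.71, 4.68, 9.91 and 6.81 in Fed and 10.6, 9.78, 7.99 and 9.96 in Pre (-0.55, FDR 0.019). Both overlapped between the groups, and the promoter furthest upstream had 9.67 TPM in Pre and 10.5 in Fed (FDR 0.69).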

How the data were processed

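Per the submitters' processing notes and the study's methods, the authors mapped trimmed CAGE reads to mm10 with BWA and HISAT2 and clustered start sites with PromoterPipeline. The versions are not given in the sources used here. The authors deposited, per cluster and library, raw tag counts and TPM, the same tags scaled by the authors to a common library total. All per-sample columns were matched to samples (0 unmatched). Clusters were given the nearest GENCODE M21 gene 5′ end on the same strand within 500 bp: 9615 of 10819 clusters had one (9077 genes), and 261 had more than 1 gene in the window. For those 261 the nearest gene is named and the other cannot be told apart from it.

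The test was edgeR 4.0.16 in R 4.3.3 on the counts (TMM, quasi-likelihood F test, Benjamini-Hochberg FDR over 10776 promoters with a tag), with the 28 libraries of the first run in 1 fit and group as the only term. Levels called after TMM are CPM of the tags in clusters divided by the TMM factor. SE is the absolute log2 fold change over the root of F. Single promoters were also compared on log2(TPM + 0.1) by exact two-sided permutation tests, which with 4 against 4 libraries cannot give a p below 0.0286. Alternatives used DESeq2 1.42.0, limma 3.58.1 on TPM, other scalings, filters and sets of libraries, and each library left out. Leaving out Fed 2 and Fed 3 together was chosen after seeing the data.

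The genes named were, by the promoter of smallest p, the 12 largest called changes in each direction with a mean of 1 CPM, the 6 of smallest FDR in each direction, up to 4 called members of each list (otherwise the 2 of smallest p), and 11 food, clock, stress and fiber genes. A few genes that this rule names are not reported here. Others are stated in the text as chosen after their values were seen. Members and lists were chosen with earlier results of these data known. The fit was tested on simulated data, with 200 changed promoters among 10563 in Fed against Pre. Of those at 1.5-fold 21% were recovered and of those at 2-fold 91%, with 4 false calls among 116. The simulation left out promoters of few tags and gave all promoters 1 common spread. It held no liver transcripts and no differences in make-up between libraries. Its rates therefore do not measure recovery or false calls in the real libraries. Libraries of a group differed by at least 24.8 in chi-square per degree of freedom, so none was a duplicate. Tags come from mice with 1 library each, without technical repeats, and depth of at least 18257657 tags makes counting error small except at promoters of a few tags. Sequences came from RefSeq, build GRCm38.p6, and a run of pyrimidines was counted from 5 bases. The conflict of labels on the food of Fed was met by using the title.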

Additional observations from a re-analysis of the deposited data

Results flagged for a closer look

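In 228 groups of 4 libraries, the level of a named promoter in Fed or in Pre, 12 had 1 library whose gap to the nearest of the others, as a share of the range of the group, exceeded Dixon's critical value, and chance alone gives about 1 in 20. In Pre 2, *Acadm* was at 398 TPM against 357 to 363 in the others, *Cox8b* at 5939 against 5410 to 5463 and *Hdac4* at 16 against 10.7 to 11.5. In Pre 3, *Auts2*, a transcriptional regulator that was higher in Fed by 1.10 on the log2 scale, was at 4.22 TPM against 4.57 to 4.62, and *Hdac5* was at 47.3 against 45.3 to 45.4. In Pre 4, *Fabp3* was at 3836 TPM against 3047 to 3152, *Thbs1* at 74.3 against 61.4 to 63.0, *Gm31659*, a predicted gene, at 10.8 against 15.5 to 16.2, and *Fga* at 0.0376 against 0. In Fed 3, *Coq8a* was at 3.03 TPM against 1.98 to 2.11, *Dbp* at 12.6 against 8.26 to 8.95 and *Gm2387* at 2.05 against 1.18 to 1.26. Of these, the groups of *Cox8b*, *Acadm*, *Fabp3*, *Hdac4*, *Gm31659*, *Fga* and *Dbp* overlapped between Fed and Pre, and those of the other 5 did not.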

How the results depend on the processing

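The counts of 634 higher and 573 lower promoters stayed within 1.5 times under the size factors of DESeq2, upper-quartile scaling, filterByExpr, the likelihood ratio test, DESeq2 (756 and 803, where 48.5% were higher) and all 38 libraries with run as a term. They moved further with library size only (2 and 4), limma on the deposited TPM (3 and 13) and a fit of the 8 Fed and Pre libraries alone (413 and 218, where 65.5% were higher). Fed 2 and Fed 3 both left out gave 440 and 335. With each library left out in turn, 106 to 1024 promoters were higher and 86 to 949 lower, lowest without Fed 2 and highest without Fed 3. The causes were not tested.

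The replicate numbers gave no pairing: the correlations of the deviations of same-numbered Fed and Pre libraries were -0.188, -0.129, -0.021 and 0.002, and not every library correlated best with its own number. With a replicate block 544 promoters were higher and 456 lower. Of the 90 called promoters named here, 83 kept their call under the block, 89 under the size factors of DESeq2, 3 with library size only, 51 in the fit of 8 libraries, 6 with limma on TPM, 37 without Fed 2, 42 without Pre 1, 47 without Fed 1 and 59 with Fed 2 and Fed 3 both left out, and 0 changed direction in any setting. Lower members of the lists ranged over single libraries left out from 10 to 30 for ribosomal proteins, 4 to 40 for the respiratory chain, 1 to 17 for the proteasome and 0 to 10 for fatty acid oxidation, and all 4 lists had 0 in at least 1 other setting. In the simulation 21% of 1.5-fold changes were recovered, but it did not hold the differences between these libraries.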
